A study of Rattus norvegicus with 12 samples.

Results

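Genes for molecular chaperones, heat shock proteins and protein folding enzymes were examined in rat fibroblasts with and without c-myc. They were taken from the probes that the authors' 2 deposited tables list as changed by rapamycin, 984 for the TGR-1 line and 1143 for the HO15.19 line, with 1734 named probes in the union of both. A probe was a member if its gene description held a term for heat shock, DnaJ, chaperone, crystallin, disulfide or prolyl isomerase, FK506 binding, calreticulin, calnexin or endoplasmic reticulum (ER). After Creb3l1 and descriptions that mention mitochondria were dropped, 26 probes of 25 genes remained, of 22523 probes on the array. The cytosol or nucleus held 19 probes of 18 genes and the ER or secretory pathway 6. The last is Hspa9, a mitochondrial protein that stayed because its description does not name that organelle. The TGR-1 table alone supplied 10 of these probes, the HO15.19 table alone 9, and 7 were in both.

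TGR-1 is a c-myc+/+ subclone of Rat-1 fibroblasts that lacks hprt, with a labelled doubling time of 18 to 21.5 hr. HO15.19 (c-myc-/-) was made from TGR-1 by homologous recombination at both c-myc alleles and has a labelled doubling time of 45 to 60 hr, so genotype, growth rate and any other difference between these lines cannot be told apart. Both were grown in DMEM with 10% bovine calf serum and received DMSO vehicle or 50 nM rapamycin, an inhibitor of the kinase complex mTORC1, for 24 hr. Total RNA from 3 independent biological replicates per group was hybridized to 12 Illumina RatRef-12 arrays. Levels are background corrected, quantile normalized log2 intensities, and a probe's level is not set against that of another probe.

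Chaperones bind unfolded proteins and help them fold or hold them soluble. In the cytosol, HSP70 and HSP90 proteins work in cycles with DnaJ proteins and other co-chaperones, small heat shock proteins hold unfolded clients, and the CCT chaperonin folds actin and tubulin. Heat shock factor 1 (HSF1) drives many of these genes in stressed cells. In the ER, BiP and its DnaJ partners fold secreted and membrane proteins, and the unfolded protein response raises their genes through ATF6, XBP1 and ATF4. Prolyl isomerases (cyclophilins and FKBPs) turn proline bonds, and among them FKBP12 is the protein to which rapamycin binds.

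The arrays had 9605 to 10472 detected probes each, and correlated at 0.9886 or more within groups. The named probe of Myc, the targeted gene, was at 8.97 to 9.76 in TGR-1 and 7.69 to 8.19 in HO15.19 cells, and its place relative to the deleted sequence was not examined here. Of 14 fibroblast markers 4 were named; Col1a1, Col3a1 and Fn1 were detected on all 12 arrays, and Lum on the 6 HO15.19 arrays alone. None of 5 epithelial, 4 endothelial or 7 muscle and lens markers was named, so these cells were not tested for, and of 5 blood cell markers Cd14 was named, at 6.91 to 8.02. The 26 member probes were detected on all 12 arrays and tested.

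The clearest contrast among the members lay between the lines. The small heat shock protein gene Cryab (αB-crystallin) was 20.7-fold higher in cells without c-myc (HO15.19), and Hspb1 (HSP27) 1.94-fold higher. The HSP90 gene Hsp90aa1, the CCT subunits Cct3 and Cct7, the HSP70-type gene Hspa14 and the prolyl isomerases Ppid, Ppih and Fkbp1a were lower in HO15.19 cells. The ER members BiP, Herpud1 and Dnajb9 differed between the lines by 0.08 or less on the log2 scale, averaged over both treatments. With each array centred on its median, BiP was lower in HO15.19 cells (−0.36). Of the other ER members, Fkbp7 differed by 0.14, Dnajc3 by −0.23 and C1galt1c1 by 0.37. In limma, which averaged the line difference over both treatments, a member passed at 1.2-fold or more with an adjusted p below 0.05 and an unadjusted p not above 0.01. This contrast is orthogonal to both rapamycin contrasts on which the tables were chosen. By this rule 16 of 26 members passed (61.5%), against 40.2% of all 10852 tested probes, with 5 higher (background 19.5%) and 11 lower (background 20.7%) in HO15.19 cells. Among the 1707 tested named probes that are not members 64.5% passed, 31% higher and 33.5% lower, so the members' share was near that of the tables they came from. The median line difference was −0.02 for the members and −0.01 over all tested probes. By place, 14 of 19 cytosolic probes passed (4 higher, 10 lower, median −0.31), and 1 of 6 ER probes (median 0.04), a contrast in counts that was not tested.

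**Figure D1:**
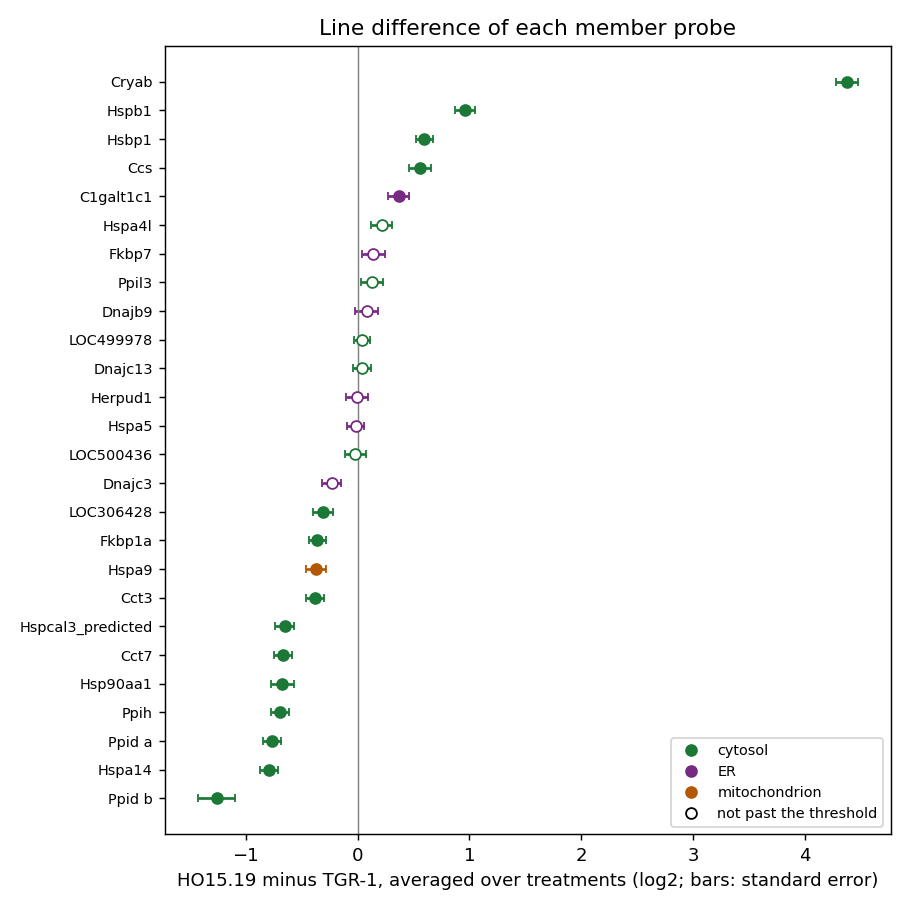
Difference in level between HO15.19 and TGR-1 cells, averaged over DMSO and rapamycin, for each member probe (x axis, log2, bars are standard errors from 12 arrays), coloured by place in the cell. Filled points passed the threshold; Cryab, at 4.37, stands apart from all other members, which lie between −1.26 and 0.96.

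Cryab, a small heat shock protein abundant in lens and muscle, had levels of 6.28, 6.46 and 6.51 on the TGR-1 control arrays and 7.06, 7.48 and 7.21 with rapamycin. In HO15.19 cells it was at 11.19, 10.85 and 10.91 with DMSO and at 11.23, 11.52 and 11.51 with rapamycin. All 6 HO15.19 arrays lay above all 6 TGR-1 arrays, with a wide empty range between them. In RNA from a whole culture, more cells that express a gene and more of its RNA per cell cannot be told apart. The difference was 4.37 ± 0.10 on the log2 scale (SE, adjusted p = 1.42e-15), 4.57 with DMSO and 4.17 with rapamycin. Since background correction sets the level of dim probes, the fold depends on it: 14.2-fold without correction, 14.6-fold from the authors' normalized values and 23.9-fold with a smaller offset.

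Hspb1, the other small heat shock protein, was at 11.51, 11.48 and 11.65 on TGR-1 control and 11.53, 11.49 and 11.64 on TGR-1 rapamycin arrays. It was at 12.60, 12.42 and 12.09 on HO15.19 control and 12.72, 12.61 and 12.59 on HO15.19 rapamycin arrays, so that the lines did not overlap. The line difference was 0.96 ± 0.09 (adjusted p = 1.38e-07). Hsbp1, which binds HSF1 and restrains it, was also higher in HO15.19 cells, by 0.60 ± 0.08 (adjusted p = 5.81e-06), as was Ccs, the copper chaperone of superoxide dismutase 1, by 0.56 ± 0.10 (adjusted p = 1.52e-04). Both had all 6 HO15.19 arrays above all 6 TGR-1 arrays. In all, 11 members had no overlap between the lines (background 23.1%), 5 of them higher in HO15.19 cells (background 11.8%) and 6 lower (background 11.3%). These backgrounds are shares of all tested probes, and the share among the named probes that are not members was not counted for overlap.

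The HSP90 members were lower without c-myc. Hsp90aa1, the stress-inducible cytosolic HSP90, shown per array because of its values, was at 11.18, 11.32 and 11.00 on TGR-1 control arrays and 10.49, 10.49 and 10.53 with rapamycin. HO15.19 cells had 9.92, 10.10 and 10.41 with DMSO and 9.90, 10.24 and 10.42 with rapamycin. Every HO15.19 array was thus below every TGR-1 array, although the highest HO15.19 arrays came near the TGR-1 rapamycin arrays. The difference was −0.67 ± 0.10 (adjusted p = 4.10e-05), and it was −1.02 with DMSO and −0.32 with rapamycin. Hspcal3_predicted, a predicted HSP90 alpha-like sequence kept under its listed name, was lower by a like amount (−0.65 ± 0.09, adjusted p = 7.22e-06). HSP90 alpha sequences are close copies of each other, and which transcripts these 2 probes read was not settled.

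Of the HSP70 family, Hspa14, a ribosome-associated HSP70-like protein, differed by −0.79 ± 0.08 (adjusted p = 4.25e-07) with no overlap of the lines. LOC306428, described as similar to a bovine HSP70, differed by −0.31 ± 0.09 (adjusted p = 0.00757), an average of −0.81 with DMSO and 0.19 with rapamycin. LOC500436, described as similar to the constitutive heat shock protein 8, differed by −0.02 ± 0.10, and Hspa4l, an HSP110-type exchange factor for HSP70, by 0.22 ± 0.10 (adjusted p = 0.0754), neither past the threshold, although Hspa4l passed without HO15.19 rapamycin replicate 1 (0.28). Inducible HSP70 genes have near-identical copies, so the gene read by LOC306428 and LOC500436 is uncertain. Both chaperonin subunits were lower in HO15.19 cells, with differences of −0.67 ± 0.08 for Cct7 (adjusted p = 2.53e-06) and −0.38 ± 0.08 for Cct3 (adjusted p = 9.29e-04).

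Among the prolyl isomerases, Ppid (cyclophilin 40, an HSP90 co-chaperone) has 2 probes. The first, ILMN_1354575 (Ppid a), was at 11.08, 11.16 and 10.98 on TGR-1 control, 10.54, 10.49 and 10.78 on TGR-1 rapamycin, 10.15, 10.33 and 10.18 on HO15.19 control and 10.01, 9.88 and 9.90 on HO15.19 rapamycin arrays. Its HO15.19 arrays all lay below its TGR-1 arrays (−0.76 ± 0.08, adjusted p = 5.25e-07). The second, ILMN_1361286 (Ppid b), was at 8.16, 8.35 and 8.42, then 7.60, 7.52 and 7.98, then 6.71, 6.32 and 6.98, and then 6.48, 6.45 and 7.54 in the same order of groups. It was lower in HO15.19 cells as well (−1.26 ± 0.17, adjusted p = 7.20e-06), but 1 HO15.19 rapamycin array reached the TGR-1 rapamycin arrays.

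Ppih, a cyclophilin of the splicing machinery, was at 10.18, 10.04 and 10.15 on TGR-1 control, 9.87, 9.71 and 9.85 on TGR-1 rapamycin, 9.60, 9.62 and 9.33 on HO15.19 control and 8.94, 9.12 and 9.00 on HO15.19 rapamycin arrays. The 4 groups stepped down in that order with no overlap between neighbours, and the line difference was −0.70 ± 0.08 (adjusted p = 1.66e-06). Fkbp1a, which encodes FKBP12, was lower as well (−0.36 ± 0.07, adjusted p = 6.82e-04). Ppil3, a further cyclophilin of the splicing machinery, differed by 0.13 ± 0.09 and did not pass. The remaining cytosolic members, Dnajc13, an endosomal DnaJ protein, and LOC499978, a crystallin zeta-like quinone reductase by its description rather than a chaperone, differed by 0.04 each and did not pass.

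**Figure D2:**
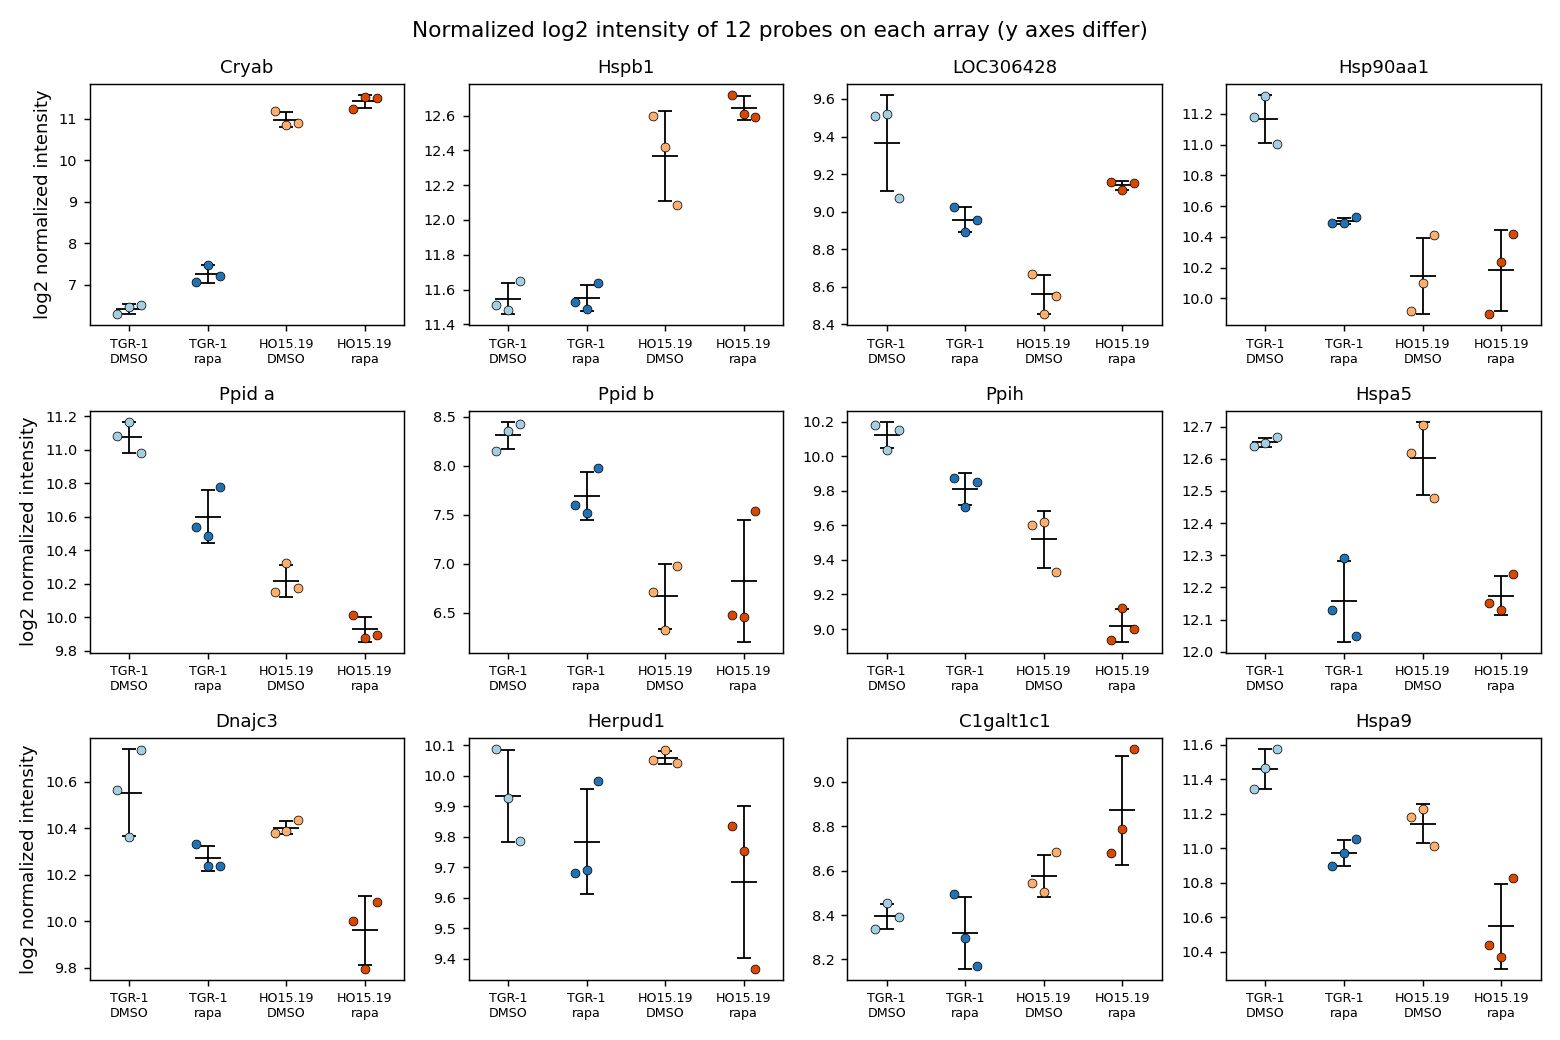
Level on each array for 12 probes of 11 genes (y axis, log2 normalized intensity, scaled per panel), with 3 arrays per group, group means and SD bars; rapa is rapamycin, and Ppid a and Ppid b are the 2 Ppid probes. Cryab and Hspb1 are higher in all 6 HO15.19 arrays, while Hspa5 is near 12.6 with DMSO and 12.2 with rapamycin in both lines.

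In the ER only C1galt1c1 passed between the lines. It encodes Cosmc, the chaperone of a single glycosyltransferase that extends O-glycans. Its levels were 8.34, 8.45 and 8.39 on TGR-1 control and 8.49, 8.30 and 8.17 on TGR-1 rapamycin arrays, against 8.54, 8.50 and 8.68 on HO15.19 control and 8.68, 8.79 and 9.15 on HO15.19 rapamycin arrays. The lines did not overlap, by a narrow margin (0.37 ± 0.09, adjusted p = 0.00323), and the call was lost with each array centred on its median (0.29). Dnajc3, a BiP co-chaperone also known as an inhibitor of the kinase PKR, differed by −0.23 ± 0.08 (adjusted p = 0.0311) and did not meet the other conditions of the threshold. Hspa5 (BiP) differed by −0.02 ± 0.08, Herpud1 by −0.00 ± 0.10, Dnajb9 by 0.08 ± 0.10 and Fkbp7 by 0.14 ± 0.10, none past the threshold. With each array centred on its median, Dnajc3 (−0.38), Hspa5 (−0.36) and the cytosolic LOC500436 (−0.46) passed as lower in HO15.19 cells, and Dnajc3 also passed without TGR-1 control replicate 2 (−0.28). Mitochondrial Hspa9 (mortalin), an HSP70 that drives protein import, was lower in HO15.19 cells (−0.37 ± 0.09, adjusted p = 0.00256).

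Rapamycin changes are given as a description, since the tables that supplied the members were chosen on them. Hspa5 and Hspa9 fell in both lines, although the call of each depended on single arrays in both, as given below. In TGR-1 cells Cryab rose, and Hsp90aa1 and Ppid a also fell, with calls that depended on single arrays as well. In HO15.19 cells Ppih, Fkbp1a, Dnajc3 and Dnajc13 fell and LOC306428 rose. Past the threshold were 5 members in TGR-1 (background 3.96% of tested probes; 1 higher, background 2.52%, and 4 lower, 1.45%) and 7 in HO15.19 cells (background 5.14%; 1 higher, 2.51%, and 6 lower, 2.64%). The members had a median change of −0.30 in TGR-1 cells and −0.16 in HO15.19 cells, against −0.00 over all tested probes in each line. The sign was negative for 21 members in TGR-1 and for 16 in HO15.19 cells, with 16 negative in both, 5 positive in both and 5 of opposite sign. The arrays of rapamycin and DMSO did not overlap for 18 members in TGR-1 (background 25.3%; 16 below, background 12.4%, and 2 above, 12.9%) and 15 in HO15.19 cells (background 21.1%; 10 below, background 10.7%, and 5 above, 10.4%).

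These counts rested on few arrays. Over all tested probes, 430 passed in TGR-1 cells with all arrays, and fewer passed on leaving out any TGR-1 array. The drop was thus not confined to members. The counts that follow are of members. In TGR-1 cells 1 member passed without control replicate 1, control replicate 2 or rapamycin replicate 1, and 2 passed without rapamycin replicate 2 or rapamycin replicate 3. In HO15.19 cells 2 passed without control replicate 1 or rapamycin replicate 1, none without control replicate 2 (limma; 11 with an unadjusted p under 0.05) and 4 without rapamycin replicate 2. The HO15.19 calls of Hspa5 and Hspa9 were thus among those lost without control replicate 2. The Hspa9 call in TGR-1 cells was lost on leaving out any TGR-1 array, without the detection filter and with an offset of 1. It was also lost without HO15.19 control replicate 1 or 2, since the groups share an estimate of the spread. The Hspa5 call in TGR-1 cells was lost on leaving out any TGR-1 array other than rapamycin replicate 2. Neither Hspa5 nor Hspa9 passed in either line with each array centred on its median or with the two-sample t-test of the methods. Hsp90aa1 lost its TGR-1 call on leaving out any TGR-1 array other than control replicate 3, and with an offset of 1. Ppid a lost its TGR-1 call without TGR-1 control replicate 1 or 2, without TGR-1 rapamycin replicate 1 or 2, and with an offset of 1. Cryab kept its TGR-1 call on leaving out any TGR-1 array. The smallest change of a member in a line whose table listed it was 0.27 for Hspb1 in HO15.19 cells (1.21-fold). Descriptions of probes outside the tables were not used here, so members just past the edge of the rule are not given.

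**Figure D3:**
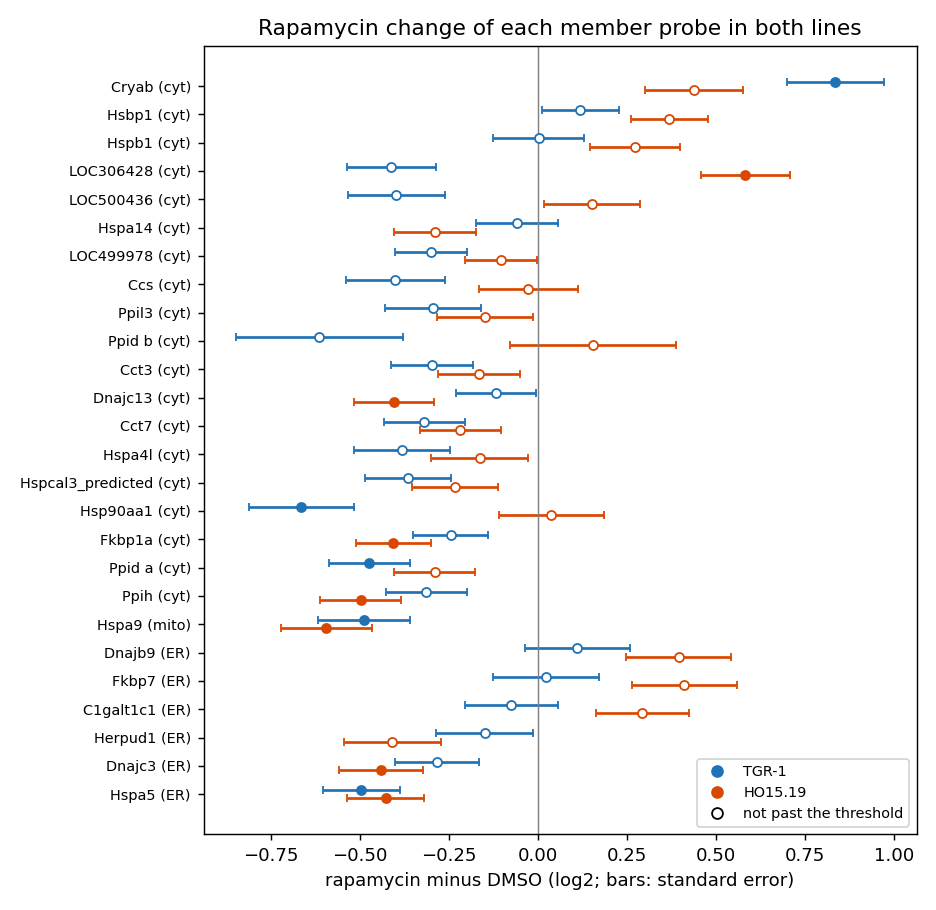
Change with rapamycin against DMSO for each member probe in TGR-1 (blue) and HO15.19 cells (orange; x axis, log2, bars are standard errors; filled points passed the threshold), ordered by place in the cell. Hspa5 and Hspa9 are filled on the left in both lines, and LOC306428 lies on opposite sides (−0.41 and 0.58).

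Among cytosolic members, Cryab rose by 0.84 ± 0.14 (SE) in TGR-1 cells, and its change in HO15.19 cells was 0.44 ± 0.14, not past the threshold here but past it without background correction (0.43). In TGR-1 cells, where Cryab is dim, the change was 0.57 without background correction and 0.97 with an offset of 1. It did not pass there with each array centred on its median (0.86). Rapamycin and DMSO arrays of Cryab did not overlap in either line. Hspb1 changed by 0.00 ± 0.13 in TGR-1 and 0.27 ± 0.13 in HO15.19 cells and Hsbp1 by 0.12 ± 0.11 and 0.37 ± 0.11, none past the threshold, although Hsbp1 passed in HO15.19 cells without background correction (0.36). Hsp90aa1 fell by 0.66 ± 0.15 in TGR-1 cells, with all 3 rapamycin arrays below the controls, and was at 0.04 ± 0.15 in HO15.19 cells. Hspcal3_predicted had changes of −0.36 and −0.23. Without background correction, Hspcal3_predicted, LOC306428, LOC499978 and Cct7 also passed as lower in TGR-1 cells (−0.36, −0.38, −0.27 and −0.31).

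Fkbp1a, the gene for rapamycin's binding partner, fell by 0.41 ± 0.11 in HO15.19 cells (−0.24 ± 0.11 in TGR-1), with no overlap of the treatments in either. Ppih fell by 0.50 ± 0.11 in HO15.19 cells (−0.31 ± 0.11 in TGR-1). Ppid a fell by 0.47 ± 0.11 in TGR-1 cells (−0.29 ± 0.11 in HO15.19), while Ppid b had −0.61 ± 0.23 in TGR-1 and 0.16 ± 0.23 in HO15.19 cells, so its 2 probes differed in sign there. Dnajc13 fell by 0.40 ± 0.11 in HO15.19 cells (−0.12 in TGR-1). Of the members not past the threshold in either line, Cct7 had −0.32 and −0.22, Cct3 −0.30 and −0.17, Hspa4l −0.38 and −0.16, Ppil3 −0.29 and −0.15, LOC499978 −0.30 and −0.10, Ccs −0.40 and −0.03, LOC500436 −0.40 and 0.15 and Hspa14 −0.06 and −0.29 in TGR-1 and HO15.19 cells.

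In the ER, the members differed in the sign of their change, and none passed as higher in either line. Hspa5 (BiP), the central ER chaperone, was at 12.64, 12.65 and 12.67 on TGR-1 control arrays and 12.13, 12.29 and 12.05 with rapamycin. HO15.19 cells had 12.62, 12.70 and 12.48 with DMSO and 12.15, 12.13 and 12.24 with rapamycin. The treatments were apart in both lines and the lines had nearly the same levels. Hspa5 fell by 0.50 ± 0.11 in TGR-1 and by 0.43 ± 0.11 in HO15.19 cells.

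Dnajc3 was at 10.56, 10.36 and 10.74 on TGR-1 control, 10.33, 10.24 and 10.24 on TGR-1 rapamycin, 10.38, 10.39 and 10.43 on HO15.19 control and 10.00, 9.80 and 10.08 on HO15.19 rapamycin arrays. In HO15.19 cells it fell by 0.44 ± 0.12, beside a change of −0.28 ± 0.12 in TGR-1 cells, with rapamycin arrays below controls in both. Herpud1, an ER membrane protein of the degradation pathway for misfolded proteins, was at 10.09, 9.93 and 9.78 on TGR-1 control, 9.68, 9.69 and 9.98 on TGR-1 rapamycin, 10.05, 10.08 and 10.04 on HO15.19 control and 9.83, 9.75 and 9.37 on HO15.19 rapamycin arrays. Its treatments overlapped in TGR-1 (−0.15 ± 0.14) and were apart in HO15.19 cells (−0.41 ± 0.14), neither past the threshold, although the HO15.19 change passed without background correction (−0.38). The other ER members had positive changes in HO15.19 cells that did not pass, 0.40 ± 0.15 for Dnajb9, a BiP co-chaperone, 0.41 ± 0.15 for Fkbp7, an ER prolyl isomerase, and 0.29 ± 0.13 for C1galt1c1, and changes of 0.11, 0.02 and −0.07 in TGR-1 cells.

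Promoter sequences are shown for 4 of the 6 ER members: Hspa5, Dnajc3 and Herpud1, which each hold an element of the unfolded protein response, and Dnajb9, which holds an E-box. Those of Fkbp7 and C1galt1c1, which hold none of the motifs searched, are not printed. They come from RefSeq (GRCr8), in which 19 of 25 member genes have an entry of 300 bases, 250 before to 50 after the start; Cryab, Hsp90aa1, Hspcal3_predicted, LOC306428, LOC499978 and LOC500436 have none. Each line gives the 200 bases before the start in the direction of transcription, with the motif in capitals. The Hspa5 sequence is chr3:38452816-38453015 on the plus strand, that of Dnajc3 is chr15:102432467-102432666 on the plus strand, that of Herpud1 is chr19:10614708-10614907 on the minus strand and that of Dnajb9 is chr6:67002052-67002251 on the minus strand. For Herpud1 and Dnajb9 the start of the entry lies inside a longer annotated gene. Capitals mark the ER stress response element (ERSE) in Hspa5 and Dnajc3, ERSE-II in Herpud1 and an E-box in Dnajb9.
Hspa5: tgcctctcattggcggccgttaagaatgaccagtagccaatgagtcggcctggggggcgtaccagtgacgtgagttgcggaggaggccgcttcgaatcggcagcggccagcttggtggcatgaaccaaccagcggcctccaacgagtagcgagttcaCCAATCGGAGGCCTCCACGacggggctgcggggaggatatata
Dnajc3: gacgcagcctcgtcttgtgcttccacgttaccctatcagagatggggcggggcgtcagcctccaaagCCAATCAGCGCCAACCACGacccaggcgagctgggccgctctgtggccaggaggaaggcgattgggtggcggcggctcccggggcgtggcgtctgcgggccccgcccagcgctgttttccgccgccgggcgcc
Herpud1: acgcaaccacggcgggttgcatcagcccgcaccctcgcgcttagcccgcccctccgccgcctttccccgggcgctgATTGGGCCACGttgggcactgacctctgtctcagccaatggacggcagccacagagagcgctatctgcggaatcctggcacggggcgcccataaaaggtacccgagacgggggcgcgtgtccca
Dnajb9: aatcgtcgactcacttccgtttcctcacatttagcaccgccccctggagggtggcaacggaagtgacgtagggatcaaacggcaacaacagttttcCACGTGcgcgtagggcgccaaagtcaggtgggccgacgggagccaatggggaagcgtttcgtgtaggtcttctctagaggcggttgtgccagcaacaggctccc

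Motifs were searched on both strands of the 300 bases and were chosen with the values known. ERSE (CCAAT, 9 bases of any kind and CCACG) began 43 bases before the start of Hspa5 and 133 bases before that of Dnajc3, and is in 0.0657% of 33469 promoters. ERSE-II (ATTGG, which is CCAAT on the other strand, 1 base of any kind and CCACG) began 124 bases before the start of Herpud1, and is in 0.0508%. Neither was in Dnajb9, Fkbp7 or C1galt1c1. The E-box CACGTG, the site type that c-Myc binds with Max, is in 6.42% of promoters, and among members was in Dnajb9, 104 bases before the start, and in Hspa9, just after it, and in none of the 12 cytosolic promoters. A heat shock element (TTC, GAA and TTC with 2 bases of any kind between each) is in 0.798% of promoters and was in none of the 19 member promoters. The search also covered 19 promoters of other genes of these pathways, described below. Of those, 1 held a heat shock element (Chordc1), 2 an E-box (Selenos and Atf4), 1 ERSE (Hsp90b1) and none ERSE-II. These motifs do not overlap each other in the members. A match describes letters only; binding was not measured.

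**Figure D4:**
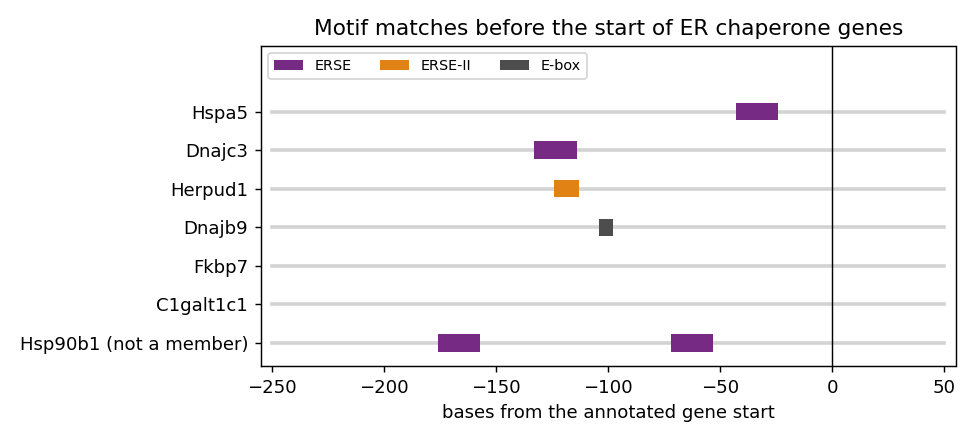
Position of motif matches (coloured bars, to scale) from 250 bases before to 50 after the annotated start (x axis, bases) in the 6 ER members and in Hsp90b1, an ER chaperone gene that is no member. ERSE or ERSE-II is in Hspa5, Dnajc3 and Herpud1, and Hsp90b1 holds ERSE at 2 positions.

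The HSP90-type ER chaperone Hsp90b1, chosen after its values and motifs were seen, changed by −0.38 ± 0.10 in TGR-1 cells and by 0.04 ± 0.10 in HO15.19 cells, neither past the threshold, with ERSE 176 and 72 bases before its start. In mitochondria, Hspa9 was at 11.34, 11.46 and 11.57 on TGR-1 control and 10.90, 10.97 and 11.05 on TGR-1 rapamycin arrays, and at 11.18, 11.23 and 11.01 on HO15.19 control and 10.44, 10.37 and 10.83 on HO15.19 rapamycin arrays. All rapamycin arrays were below their line's controls. It fell by 0.49 ± 0.13 in TGR-1 and by 0.59 ± 0.13 in HO15.19 cells.

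For the difference between the rapamycin changes of the lines, 1 member passed (background 0.111% of tested probes; higher 0.0276%, lower 0.0829%), and the choice of members for a change in either line favours such a difference. This was LOC306428, with 9.51, 9.52 and 9.07 on TGR-1 control, 9.02, 8.89 and 8.95 on TGR-1 rapamycin, 8.67, 8.46 and 8.55 on HO15.19 control and 9.16, 9.11 and 9.15 on HO15.19 rapamycin arrays. Rapamycin arrays were below controls in TGR-1 cells (−0.41 ± 0.12, not past the threshold) and above them in HO15.19 cells, where it rose by 0.58 ± 0.12. The changes differed by 0.99 ± 0.18 (HO15.19 minus TGR-1, adjusted p = 0.0436). That call was lost on leaving out any array other than TGR-1 control replicate 3, with adjusted p of 0.0269 to 0.149 over the 12 arrays left out in turn and differences of 0.91 to 1.14. The HSP90 gene Hsp90aa1 had a difference of 0.70 ± 0.21 (adjusted p = 0.240) and LOC500436 of 0.55 ± 0.19 (adjusted p = 0.320), which did not pass.

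Other genes of these pathways could be counted only where the comparison tables name them, 22 of the 8 lists' genes beside the members, and being named there means having been chosen for a rapamycin change on these arrays. With rapamycin, 2 of them fell in TGR-1 (background 1.45%) and 5 in HO15.19 cells (background 2.64%). Between the lines 7 were higher (background 19.5%, and 31% of the named probes that are not members) and 7 lower in HO15.19 cells (background 20.7% and 33.5%), so these shares were near those of the tables. Of 5 co-chaperones of HSP90, 1 fell in TGR-1 cells, Chordc1 (−0.51 ± 0.10), and 2 in HO15.19 cells, Stip1, which links HSP70 to HSP90 (−0.63 ± 0.12), and Pih1d1 (−0.45 ± 0.11). The nuclear migration protein gene Nudc had −0.44 and −0.19, not past the threshold. Between the lines 3 of the 5 were lower in HO15.19 cells, among them Stip1 (−0.82 ± 0.08, adjusted p = 3.70e-07). Of 2 chaperonin and prefoldin genes, the CCT subunit Tcp1 was lower in HO15.19 cells (−0.65 ± 0.07, adjusted p = 1.25e-06), as both CCT members were, and Pfdn5 was not (−0.10). With rapamycin Tcp1 had −0.14 and −0.28 and Pfdn5 0.18 and 0.27 in TGR-1 and HO15.19 cells, none past the threshold.

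Of 5 genes of ER chaperones and the unfolded protein response, Ddit3 (CHOP) fell in both lines, by 0.47 ± 0.11 in TGR-1 and 0.87 ± 0.11 in HO15.19 cells, and Atf4 fell by 0.69 ± 0.13 in HO15.19 cells (−0.06 in TGR-1). Sec61b, a translocon subunit, had −0.31 and −0.35, and Ppp1r15a (GADD34) −0.17 and −0.33, none past the threshold. Between the lines Ddit3 and Ppp1r15a were higher and Atf4 and Hsp90b1 lower in HO15.19 cells. The 2 genes of ER-associated degradation did not pass, with changes of −0.34 and −0.11 for Selenos and 0.00 and −0.29 for Vcp in TGR-1 and HO15.19 cells.

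Of 6 genes of collagen folding, P4hb (protein disulfide isomerase) fell by 0.48 ± 0.11 in HO15.19 cells (−0.08 in TGR-1). Between the lines 4 were higher in HO15.19 cells (background 19.5%, and 31% of the named probes that are not members). Lower was 1 (background 20.7% and 33.5%). Among these were, in limma, P3h4 (0.38 ± 0.08, adjusted p = 8.33e-04), the lysyl hydroxylase Plod1 (0.50 ± 0.08, adjusted p = 5.55e-05) and Loxl2 (−0.39 ± 0.08, adjusted p = 9.05e-04). With rapamycin P3h4 had changes of 0.36 in TGR-1 and 0.25 in HO15.19 cells. Plod1 had −0.23 and −0.29 and Loxl2 −0.13 and −0.40 in the same order, and none of these passed. Of 3 genes of oxidative folding, P4hb among them, Pdia6 was higher in HO15.19 cells (0.42 ± 0.08, adjusted p = 2.11e-04), and Gpx7 (0.25) did not pass. Their rapamycin changes in TGR-1 and HO15.19 cells were 0.29 and −0.04 for Pdia6 and 0.24 and 0.37 for Gpx7, none past the threshold. The lists for the heat shock response and for prolyl isomerases had no named gene beyond the members.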

How the data were processed

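Signals were read on 12 Illumina RatRef-12 arrays. The authors deposited signal intensities, bead means from BeadStudio without normalization between arrays, and detection p-values that compare each probe with its array's negative controls. A second table of intensities deposited by the authors was quantile normalized in BeadStudio and served as an alternative. The authors' comparison tables (Partek 6.3) hold their own fold changes, means and p-values, which were not used. The probes they list, with names and descriptions, set the members, the other pathway genes that could be counted and the named probes used as a background.

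In R 4.3.3 with limma 3.58.1, neqc used the detection p-values to correct background, then quantile normalized the log2 values (offset 16). Probes with detection p under 0.05 on at least 3 arrays (10852 of 22523, 48.2%) were fitted with lmFit, a mean per group over 12 arrays, and eBayes (8 residual and 8.72 prior degrees of freedom). Tests were two-sided with Benjamini-Hochberg adjustment over all tested probes, and the fit was checked on simulated data. The threshold comes from the methods, whose two-sample test was an alternative. The number of arrays limits the precision.

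Of the member probes, 22 were named through Entrez identifiers and 4 as listed. The members and lists were chosen with earlier results of these data known. Arrays are described one by one for Cryab, for the 3 members per compartment with the largest average rapamycin change and the 3 with the largest line difference past the threshold, for members past the threshold for the difference of changes and for genes whose probes disagree in sign; pathway lists name up to 4 genes by average rapamycin change. Hsp90aa1 and Hspa9 were added after their values were seen. Where a listed gene had several probes, that of the highest mean was used. Alternatives covered background, normalization, filter, variance model, array weights, threshold, replicate block and each array left out in turn.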

Additional observations from a re-analysis of the deposited data

Results flagged for a closer look

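LOC306428, the sequence described as similar to a bovine HSP70, had rapamycin changes that differed between the lines by 0.99 on the log2 scale (HO15.19 minus TGR-1; limma, adjusted p = 0.0436). The change was −0.41 in TGR-1 and 0.58 in HO15.19 cells, and in each line all 3 rapamycin arrays lay on one side of all 3 control arrays. It was the only member past the threshold for this difference. The members were chosen for rapamycin changes on these same arrays, which favours such a difference, and the call was lost on leaving out any array other than TGR-1 control replicate 3 (adjusted p of 0.0269 to 0.149 over the 12 arrays), under median centring (adjusted p = 1) and with an offset of 1 (adjusted p = 0.141).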

How the results depend on the processing

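The count of members that differ between the lines was 16 to 18 of 26 under the alternatives run for it, and 16 to 17 with an array left out; the methods' t-test and the spread from each line's own arrays were run for the rapamycin contrasts alone. With each array centred on its median in place of quantile normalization, 18 passed (4 higher, 14 lower), of which 15 were shared with the 16. The counts for rapamycin moved, for members and over all tested probes, and the cause was not tested. Over all tested probes, 430 passed in TGR-1 cells. More passed without background correction, with the authors' normalized values, with array weights and without the condition on the adjusted p. Fewer passed with the offset of 1, with median centring and with the methods' t-test. The counts that follow are of members. In TGR-1 cells (5) the count was 9 without background correction, with the authors' normalized values, with array weights and without the condition on the adjusted p, 2 with an offset of 1, chosen after seeing the data, and 1 to 6 with an array left out. It was 0 with median centring (limma; 10 with an unadjusted p under 0.05) and 0 with the methods' t-test, a two-sample test with Benjamini-Hochberg adjustment (14 unadjusted). In HO15.19 cells (7; 1 higher, 6 lower) it was 10 (3 higher, 7 lower) without background correction, with the authors' normalized values, with a trended and robust prior and without the adjusted p condition, 1 with the spread from each line's own arrays, 3 with the offset of 1, 0 with median centring (5 unadjusted), 0 with the methods' t-test (13 unadjusted) and 0 to 6 with an array left out. For the difference of the changes (1) it was 2 without the adjusted p condition, 0 with median centring and 0 with the offset of 1 (limma; 4 unadjusted in each), and 0 to 1 with an array left out, named with the result above. With the replicate block the counts were 6 in TGR-1, 6 in HO15.19, 16 between the lines and 1 for the difference. The replicate numbers did not pair the arrays throughout: 6 of 18 same-numbered pairs had deviations correlated over 0.1 (−0.23 to 0.28), and 5 of 12 arrays matched their own number best. Replicate 3 of TGR-1 control, TGR-1 rapamycin and HO15.19 rapamycin correlated with each other at 0.25 to 0.28. A pairing of part of the arrays was not tested further. Dim probes limit the precision of folds, as for Cryab in TGR-1 cells.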
